A study of Mus musculus with 3 samples.

Results

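Cadherins, non-clustered protocadherins, the Snai and Zeb repressors, vimentin, Epcam and 4 keratins were examined in cells sorted for a Meis1 reporter from the fetal mouse kidney. The set named 39 genes. It comprised every probe set whose platform annotation gave 1 of these symbols alone, which was 84 of the 34945 probe sets with a single symbol. These covered 38 of the 18193 genes with a value, and Cdh12 had no value. The cells came from CD-1 mice carrying the transgene Tg(Meis1-EGFP)FO156Gsat, a fluorescent reporter driven by Meis1 sequences, at E15.5 (Theiler stage 23). Kidneys were pooled (about 20 per pool), dissociated with trypsin, and the fluorescent cells were collected by FACS. The series held 1 group of 3 arrays with 1 pool each and no unsorted, negative or untreated sample, so no condition could be compared. The reporter limits the population to whatever cells carry it. The labels call the cells both peripheral blastema and nephrogenic interstitium, and the sex of the embryos is given as unknown.

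Cadherins are calcium-dependent adhesion proteins that join like cells, and the tails of the classical types bind beta-catenin and, through it, alpha-catenin and actin. In the developing kidney the ureteric bud is an epithelium with E-cadherin, the nephron forms when cap mesenchyme turns into epithelium, and the stroma around them stays mesenchymal. Snai and Zeb proteins are zinc finger repressors best known for binding E-box sequences in epithelial genes such as Cdh1 during epithelial-mesenchymal transition (EMT). Vimentin is the usual intermediate filament of mesenchymal cells, and keratins 7, 8, 18 and 19 are those of simple epithelia.

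Promoter letters are shown for Epcam and 3 keratins, to let the E-boxes found there be seen beside their signals. RefSeq windows (GRCm38.p6) were matched for 25 of the 39 genes. The 250 bases before each start were searched on both strands for the E-box CACCTG, which reads CAGGTG on the other strand. It was found in 6 of the 25 genes (24.0%). These were 4 of 4 epithelial genes with a window, 1 of 9 type II cadherins (Cdh7) and 1 of 2 EMT factors (Snai1), while 0 of 7 protocadherins held it. Of all 32851 promoter windows 17.2% held it, and counted by gene 5252 of 27025 did (19.4%). A match is a description of the letters. The 4 epithelial genes were picked for display after the matches were seen. Each sequence runs 5′ to 3′ on the gene's strand and ends at the base before the start, with the E-box in capitals. The windows are chr17:87635729-87635978 (plus strand) for Epcam, chr15:102027966-102028215 (plus) for Krt18, chr15:102004343-102004592 (minus) for Krt8 and chr15:101412153-101412402 (plus) for Krt7.
Epcam: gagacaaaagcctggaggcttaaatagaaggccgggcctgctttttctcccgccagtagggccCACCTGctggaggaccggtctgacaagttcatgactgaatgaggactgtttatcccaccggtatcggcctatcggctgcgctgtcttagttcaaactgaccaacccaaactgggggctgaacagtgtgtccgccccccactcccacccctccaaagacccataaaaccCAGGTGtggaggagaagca
Krt18: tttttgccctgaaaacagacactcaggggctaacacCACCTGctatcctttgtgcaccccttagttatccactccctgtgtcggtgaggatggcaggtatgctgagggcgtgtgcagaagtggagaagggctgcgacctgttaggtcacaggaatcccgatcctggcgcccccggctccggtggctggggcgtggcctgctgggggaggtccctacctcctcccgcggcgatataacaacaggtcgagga
Krt8: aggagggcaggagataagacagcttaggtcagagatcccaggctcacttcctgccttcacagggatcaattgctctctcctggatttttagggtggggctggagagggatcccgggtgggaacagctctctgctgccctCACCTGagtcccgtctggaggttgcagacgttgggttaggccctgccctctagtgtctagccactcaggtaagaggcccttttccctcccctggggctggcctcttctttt
Krt7: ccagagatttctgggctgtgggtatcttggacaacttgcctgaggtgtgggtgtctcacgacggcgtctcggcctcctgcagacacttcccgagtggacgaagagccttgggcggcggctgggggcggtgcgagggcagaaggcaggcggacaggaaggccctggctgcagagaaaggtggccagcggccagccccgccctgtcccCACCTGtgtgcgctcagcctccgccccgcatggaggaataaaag
Epcam held E-boxes beginning 187 and 19 bases before the start. The box of Krt18 began 214 bases before it, that of Krt8 111 and that of Krt7 44. No window was matched for Cdh1, Cdh2, Cdh3, Cdh4, Cdh5, Cdh11, Cdh13, Cdh16, Cdh17, Cdh19, Pcdh1, Snai2, Zeb1 and Krt19.

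The array signals were linear intensities, and each array had its own background level, the 95th percentile of 71 odorant, vomeronasal and trace amine receptor genes. These levels were signals of 136, 186 and 169 in replicates 1, 2 and 3. A gene took its brightest probe set, and its distance is its mean log2 signal minus the level. Whether it exceeded 0 was tested with limma (one-sided), and p-values were adjusted by Benjamini and Hochberg's method across every gene, with a threshold of 0.05. Pearson's r across genes was 0.968 to 0.969 between arrays, which describes genes and not replicates. All 10 markers of nephrogenic interstitium were above background, where 57.3% of all genes were. Meis1 lay 6.83 ± 0.21 log2 units above it (SE, n = 3), Foxd1 7.46 ± 0.21 and Meis2 7.59 ± 0.20. The cells were sorted for a Meis1 reporter, so the Meis1 value is not separate evidence of what they are. Of 9 cap mesenchyme markers 7 were above, with Six2 at 1.85, Eya1 at 3.46 and Meox1 at 2.58, but Cited1 (-4.21) and Osr1 (-3.14) were not. The remaining cap mesenchyme markers above background were Itga8 (5.46), Crym (1.02), Sall1 (6.11) and Gdnf (7.36). The count was 6 of 9 when the 99th percentile was the level. It was also 6 of 9 with a level from genes restricted to other tissues, and with probe sets averaged. In sorted bulk cells a low signal in all cells and a strong signal in few cells cannot be told apart.

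Of the 38 genes, 16 were above background (42.1%), where 57.3% of all genes were, so the set as a whole was not detected more often than other genes. The 16 were Cdh2, Cdh3, Cdh5, Cdh6, Cdh10, Cdh11, Pcdh8, Pcdh9, Pcdh18, Pcdh19, Snai2, Zeb1, Zeb2, Vim, Epcam and Krt18. Their median distance was 5.01 log2 units (3.88 for all genes above background), and the other 22 genes had a median of -0.60 (-1.51 for all genes not above it). By role, 2 of 5 type I cadherins, 4 of 11 type II cadherins, 0 of 4 atypical cadherins and 4 of 8 protocadherins were above. So were 3 of 4 EMT factors, Vim, and 2 of 5 epithelial genes.

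**Figure D1:**
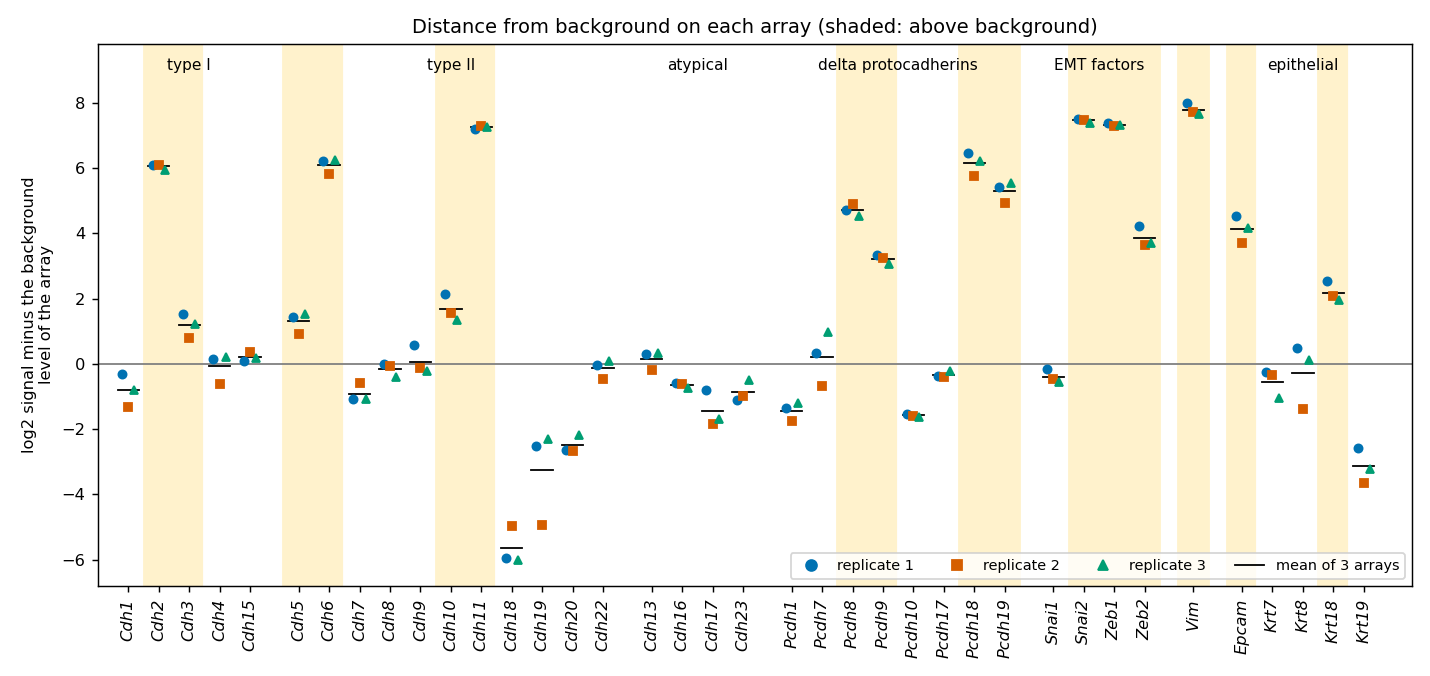
Distance of each gene from the background level of the array, in log2 units, for 38 genes ordered by role. Points are the 3 arrays, black lines their means, the grey line the background level and shaded columns genes above background. Vim stands between the EMT factors and the epithelial genes. Snai2, Zeb1, Vim, Cdh11 and Cdh2 lie high on every array, while Cdh1 lies below the level on all 3.

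Among type I cadherins, which carry strong homotypic adhesion, the neural type Cdh2 was detected and the epithelial type Cdh1 was not. Cdh2, N-cadherin, had signals of 9266, 12718 and 10484 in replicates 1, 2 and 3. It lay 6.05 ± 0.19 log2 units above background (SE, n = 3; adjusted p = 1.07e-06), and both of its probe sets were above. Cdh1, E-cadherin, had signals of 111, 74.2 and 98.2 on its only probe set. All 3 values lay below the level of their array, at a mean distance of -0.80 ± 0.26 (adjusted p = 1). A probe set that fails would give the same reading, so this does not show that the transcript was absent. Cdh3, P-cadherin, had signals of 395, 322 and 393, all above the level, and both probe sets passed. Its distance of 1.18 ± 0.23 (adjusted p = 0.00243) passed the test, but it lost the call when the level came from genes restricted to other tissues (0.27, adjusted p = 0.208). Cdh4, R-cadherin, had signals of 153, 122 and 196 (-0.08 ± 0.25), and Cdh15, the cadherin of skeletal muscle, of 144, 238 and 190 (0.20 ± 0.20, adjusted p = 0.294). Cdh15 exceeded the level on all 3 arrays without passing the test, and 0 of 8 skeletal muscle markers were above background, with Myod1 at -0.49 and Myog at -2.61.

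Type II cadherins have a different adhesive interface and are found mostly in mesenchyme and the nervous system. Cdh11, the cadherin typical of mesenchymal and bone-forming cells, had signals of 20002, 29291 and 25799. It lay 7.25 ± 0.19 log2 units above background (adjusted p = 1.04e-06), and its second probe set (4425, 4517 and 4939) was also above. Cdh6, which is known from the early nephron and proximal tubule precursors, had signals of 10002, 10463 and 12938 and a distance of 6.09 ± 0.21 (adjusted p = 1.18e-06). Its second probe set read 360, 323 and 401 and was also above background (1.15 ± 0.23 in that fit, adjusted p = 0.00431 over all probe sets). Early nephron markers were above background in 2 of 8 cases, Jag1 (3.07) and Dll1 (1.00), while Wnt4 (-0.08) and Pax8 (-0.37) were not, and their summed signal was 2895, 2293 and 2283 over the arrays. Jag1 alone gave 1535, 1285 and 1277 of that sum. By signal Cdh6 was lowest on replicate 1, where the sum was highest. By distance Cdh6 was lowest on replicate 2 (6.2, 5.82 and 6.26 over the arrays). The part of nephron cells in the Cdh6 signal was not tested.

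Cdh10 and Cdh5 were above background, and each call rested on a single probe set. Cdh10, a neural cadherin, had signals of 604, 554 and 433 (1.69 ± 0.24, adjusted p = 0.000503), but its other 3 probe sets were not above background, and the mean over probe sets lay at -0.32. Cdh5, the cadherin of endothelial junctions, had signals of 370, 351 and 490 (1.30 ± 0.22, adjusted p = 0.00136). Its other probe set read 44.5, 40.2 and 57.5, and the mean over both was -0.04. With a level from genes restricted to other tissues the Cdh5 distance was 0.38 (adjusted p = 0.084). Endothelial markers were above background in 5 of 12 cases. Tek, an angiopoietin receptor, lay at 2.85, Emcn at 1.55 and Kdr at 1.06, but Pecam1 (-1.65) and Tie1 (-3.73) were not above it. Their summed signal was 3544, 3951 and 4160. Both that sum and Cdh5 were highest on replicate 3, but the sum was lowest on replicate 1 and Cdh5 on replicate 2. The part of endothelial cells in the Cdh5 signal was not tested.

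The other 7 type II cadherins, best known from neurons and glia, were not above background. Cdh9 (0.07 ± 0.24), Cdh22 (-0.14 ± 0.22) and Cdh8 (-0.16 ± 0.21) lay near the level. Cdh7 lay at -0.92, Cdh20 at -2.50 and Cdh18 at -5.64, below it on every array. Cdh19, a marker of Schwann cell precursors, lay at -3.26 ± 0.54, with signals of 23.8, 6.03 and 34.1 that differed more between arrays than those of any other of the 38 genes. Of 7 Schwann and neural crest markers 2 were above background, Erbb3 at 1.41 and Dbh at 2.45, but Sox10 (-0.21) and Foxd3 (-1.77) were not. The count was 0 of 7 with probe sets averaged (Erbb3 -0.75, Dbh 0.40), 1 of 7 without cross-matching probe sets (Dbh 0) and 1 of 7 with a level from tissue-restricted genes (Erbb3 0.49).

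None of the atypical cadherins passed the limma test, and at an unadjusted p below 0.05 the count was also 0. Cdh13, which is held to the membrane by a lipid anchor and lacks a tail, had signals of 166, 162 and 215 (0.14 ± 0.22, adjusted p = 0.444). Taking the 90th percentile of the receptor genes as the level gave a distance of 0.50 (adjusted p = 0.0485), which passed. Cdh16, the kidney-specific cadherin of tubule epithelium, had signals of 90.6, 120 and 101, below the level on all 3 arrays (-0.65 ± 0.19). Cdh17, the liver-intestine cadherin, lay at -1.44 ± 0.27 and Cdh23, part of the tip link of hair cells, at -0.86 ± 0.22.

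Non-clustered protocadherins, whose tails do not bind catenins as classical cadherins do and in some members bind actin regulators, were divided. Pcdh18 had signals of 11903, 10106 and 12554 and lay 6.14 ± 0.23 log2 units above background (adjusted p = 1.37e-06). Pcdh19, an X-linked gene, had signals of 5814, 5651 and 7826 (5.29 ± 0.22, adjusted p = 1.96e-06). Pcdh8, known from segmenting mesoderm, had signals of 3606, 5585 and 3903 (4.72 ± 0.20, adjusted p = 2.16e-06). That probe set is of a kind that can match other transcripts, and without such probe sets Pcdh8 lay at 2.79 (adjusted p = 2.58e-05), with signals of 839, 1598 and 1069. Each of these was far above the level on all 3 arrays, and Pcdh8 was highest on replicate 2. Pcdh9 had signals of 1392, 1760 and 1402 (3.21 ± 0.20, adjusted p = 9.31e-06). Pcdh1 (-1.43 ± 0.22), Pcdh10 (-1.58 ± 0.19) and Pcdh17 (-0.33 ± 0.20) were below the level on every array. Pcdh7 had signals of 170, 115 and 332, above the level on 2 arrays and below it on replicate 2 (0.20 ± 0.35, adjusted p = 0.483).

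The EMT factors were detected except for Snai1. Snai2, also called Slug, had signals of 24911, 33230 and 28261 and lay 7.46 ± 0.19 log2 units above background (adjusted p = 1.04e-06), on a probe set of a kind that can match other transcripts. Without such probe sets Snai2 lay at 4.88 (adjusted p = 2.12e-06), with signals of 4758, 5135 and 4531. Zeb1 had signals of 22748, 28912 and 27103 (7.33 ± 0.19, adjusted p = 1.04e-06). Zeb2 had signals of 2534, 2330 and 2182 (3.85 ± 0.22, adjusted p = 6.58e-06). All 3 stood well clear of the level on every array. Snai1, known as Snail, had signals of 123, 134 and 114 on its only probe set, all below the level (-0.40 ± 0.21, adjusted p = 1). Vim had signals of 34566, 39059 and 34465 and a distance of 7.79 ± 0.20 (adjusted p = 1.04e-06), and its 3 probe sets were all above background.

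The epithelial genes did not behave alike. Epcam, an adhesion protein of epithelial cells that is also a marker of the ureteric bud, had signals of 3148, 2398 and 3004. It lay 4.12 ± 0.24 log2 units above background (adjusted p = 7.00e-06). The second Epcam probe set (1419, 827 and 890) was also above, but is of a kind that can match other transcripts. Krt18 had signals of 788, 779 and 656 on its only probe set (2.18 ± 0.22, adjusted p = 9.40e-05). Krt8, which encodes the filament partner of keratin 18, had signals of 191, 71.1 and 182, above the level on 2 arrays and well below it on replicate 2 (-0.27 ± 0.39, adjusted p = 1), and its other 2 probe sets were lower. Krt7 (116, 146 and 81.4) and Krt19 (22.7, 15 and 18.3) were below the level on all 3 arrays, at -0.55 ± 0.25 and -3.14 ± 0.26. All 4 promoters printed above hold the E-box, and they belong to Epcam and Krt18, which were above background, and to Krt8 and Krt7, which were not.

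Markers of ureteric epithelium were above background in 5 of 11 cases, with Wnt11 at 2.05 ± 0.23 log2 units, Calb1 at 1.63 ± 0.28 and Tfcp2l1 at 0.76 ± 0.28, and with the receptor Ret at -0.35 ± 0.25 and the ligand Wnt9b at -0.14 ± 0.21. Without replicate 1, and likewise without replicate 3, the count was 2 of 11. Tfcp2l1 was among those lost, at 0.61 without replicate 1 (adjusted p = 0.171) and 0.56 without replicate 3 (adjusted p = 0.197), by limma over all genes. The summed signal of these 11 markers was 2795, 2529 and 3243, lowest on replicate 2 and highest on replicate 3. By signal Epcam was lowest on replicate 2 and highest on replicate 1. Krt18 was nearly level on replicates 1 and 2 (788 and 779) and lowest on replicate 3 (656). The sum over the 10 interstitium markers was 182397 to 202023. Probe sets differ in affinity and 6 of the 11 ureteric markers were not above background, so the sums do not give shares of cells. The part of ureteric cells in the Epcam and Krt18 signals was not tested.

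Several of the genes lie side by side in the genome, and some neighbours shared a call while others did not. By order along the GRCm38.p6 annotation, Cdh1 and Cdh3 are adjacent protein-coding genes, and Cdh3 was above background while Cdh1 was not. Krt8 and Krt18 are adjacent, and Krt18 alone was above. Cdh8, Cdh11 and Cdh5 follow each other, with Cdh11 and Cdh5 above and Cdh8 not. Cdh6, Cdh9, Cdh10 and Cdh12 form another run, where Cdh6 and Cdh10 were above, Cdh9 was not and Cdh12 had no value. Cdh7 and Cdh19 are neighbours that were both not above.

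Of the 84 probe sets, 32 were above background (38.1%) in the fit over all 34945 probe sets, of which 48.6% were. Among the 15 detected genes with more than 1 probe set, all probe sets were above for 8: Cdh2, Cdh3, Cdh6, Cdh11, Pcdh8, Snai2, Vim and Epcam. For the other 7, Cdh5, Cdh10, Pcdh9, Pcdh18, Pcdh19, Zeb1 and Zeb2, only part were. Over all other detected genes with several probe sets, every probe set was above for 2293 of 6805 (33.7%). The 4 probe sets of Zeb1 had mean signals of 26255, 2019, 809 and 61.5, and the last was not above background. Zeb2 had 3 of 5 above, and the fourth fell just short (0.56 ± 0.22, adjusted p = 0.0527 over all probe sets). The 9 genes that were not above background and had several probe sets had no probe set above it. This nearly follows from the rule that a gene takes its brightest probe set, and it held for 2180 of 2181 other such genes.

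**Figure D2:**
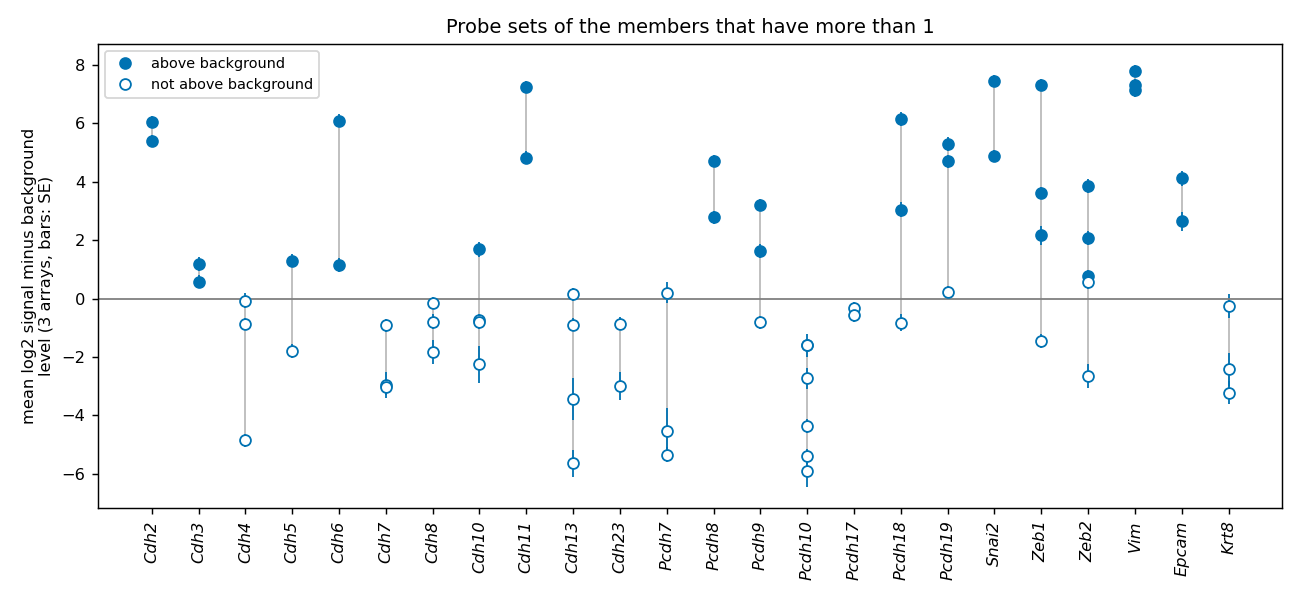
Mean distance from background over the 3 arrays for every probe set of the genes with more than 1, in log2 units, with bars for the SE. Filled points are probe sets above background, open points those not above it, and grey lines join the probe sets of a gene. Cdh2, Snai2, Vim and Epcam have filled points only, and Cdh5, Cdh10 and Pcdh18 have both kinds.

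The genes that work with cadherins were given by the same test from lists of related genes. Of 12 catenins and cadherin anchors with a value, 8 were above background (median distance 3.52, against 1.51 over all genes). Ctnnb1, beta-catenin, lay at 8.59 ± 0.19 log2 units, the alpha-catenin Ctnna1 at 8.25 ± 0.19 and the p120 catenin Ctnnd1 at 3.90 ± 0.23, while the neural and heart alpha-catenins Ctnna2 (-0.57) and Ctnna3 (-3.20) were not above. Of 24 further cadherin superfamily genes 11 were above (median -0.11). Among these were the calsyntenins Clstn1 (4.44), Clstn2 (3.53) and Clstn3 (1.06), and also Fat1 (7.94) and Fat4 (7.58). None of the 5 desmosomal cadherins with a value was, with Dsc1 at -1.76 and Dsc2 at -2.45, a subset singled out after its values were seen. The Clstn2 value rests on a probe set that can match more than 1 gene, and without such probe sets it was 0.20 (adjusted p = 0.378).

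Other EMT factors were above background in 7 of 9 cases (median 3.60), with Twist1 at 3.27 ± 0.23, Twist2 at 3.60 ± 0.20 and Tcf3 at 4.41 ± 0.25. Snai3, the remaining Snai gene, lay at -0.09 ± 0.30 and Gsc at -4.39 ± 0.41. Of 9 epithelial transcription and splicing factors 3 were above (median -0.57). They were Grhl2 at 0.92 ± 0.20, Elf3 at 1.06 ± 0.20 and Klf5 at 1.62 ± 0.20, whereas Grhl1 (-1.42) and Grhl3 (-1.21) were not. Grhl2 and Elf3 lost the call when the 99th percentile was used (0.44 and 0.58, adjusted p = 0.142 and 0.0552), and Grhl2 and Klf5 fell below the level with the mean over probe sets (-2.35 and -0.02).

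Tight junction, polarity and nectin genes were above background in 7 of 17 cases (median -0.65). The scaffold Tjp1, which also sits at cadherin contacts, lay at 7.72 ± 0.19 log2 units, the junctional adhesion protein F11r at 4.86 ± 0.27 and the polarity protein Pard3 at 2.40 ± 0.22. With the mean over probe sets Pard3 lost the call (0.46, limma adjusted p = 0.0585), and the count was 5 of 17. The claudins Cldn3 (-1.11) and Cldn4 (-0.65), sealing proteins of epithelial tight junctions, were not above. Mesenchymal filament and matrix genes were above in 5 of 8 cases (median 3.79), with Fn1 at 7.86, Acta2 at 5.36 and Nes at 2.21, but not S100a4 (-1.88) and Des (0.31). Of 8 further keratins only Krt10 (3.05) was above, and Krt5 (-0.34) and Krt14 (-1.77) were not. Acta2 fell below the level when probe sets able to cross-match were left out (-1.89) and when its probe sets were averaged (-0.33), as did Nes when averaged (-0.80).

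**Figure D3:**
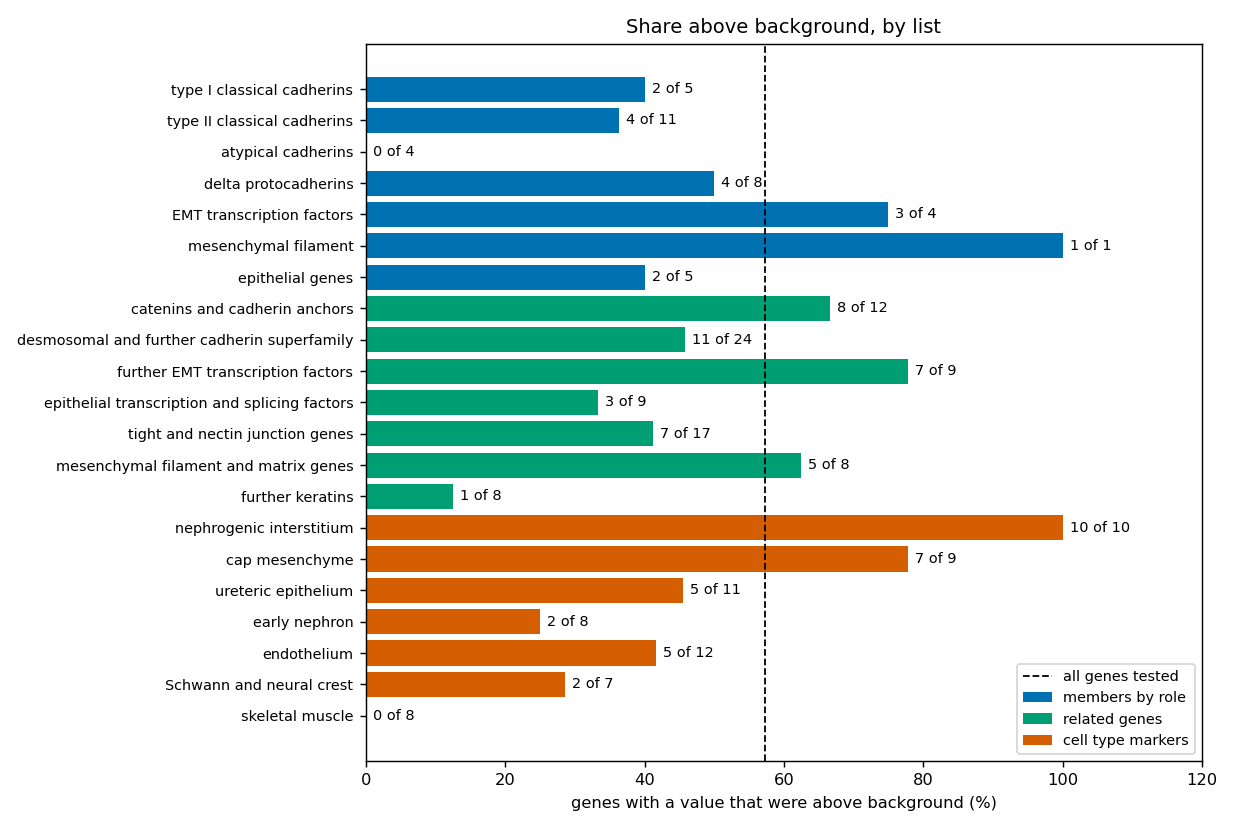
Percentage of the genes with a value in each list that were above background, with counts beside the bars. Blue bars are the cadherin and EMT genes by role, green bars related genes and orange bars cell type markers, and the dashed line marks the 57.3% of all genes. EMT factors (3 of 4) and further EMT factors (7 of 9) lie right of the line, and type I cadherins (2 of 5), epithelial genes (2 of 5) and further keratins (1 of 8) left of it.

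Between pools the detected genes differed little relative to their distance from background. After each array was centred on its median, the SD over the 3 arrays had a median of 0.21 log2 units in the 16 detected genes (range 0.09 to 0.34), against 0.16 in all genes above background. The 22 other genes had a median of 0.31, against 0.56 in all genes not above it. Of the 16, Pcdh8 (0.34), Cdh11 (0.29), Pcdh19 (0.27), Cdh5 (0.27) and Cdh2 (0.24) varied most, and Zeb2 (0.09) and Vim (0.11) least. Pcdh8, Cdh11, Cdh2, Snai2, Zeb1, Pcdh9 and Vim shared an order, lowest on replicate 1 and highest on replicate 2. Replicate 1 was the lowest array for these and Cdh6, 8 of the 16 genes, and for 33.1% of all genes above background.

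Bright genes in general sat lower on replicate 1. Among the 1798 genes with a distance of 6 or more, the median deviation from the gene's own mean was -0.07, 0.05 and 0.03 log2 units in replicates 1, 2 and 3. For the 7 cadherin and EMT genes in that range it was -0.22, 0.15 and 0.07. Quantile normalization, which brought the deviations of those 1798 genes to a median of 0 on each array, again put 8 of the 16 genes lowest on replicate 1, with Pcdh19 in place of Vim, and gave a median SD of 0.20. With 3 arrays of 1 group, the difference between pools could not be tested.

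**Figure D4:**
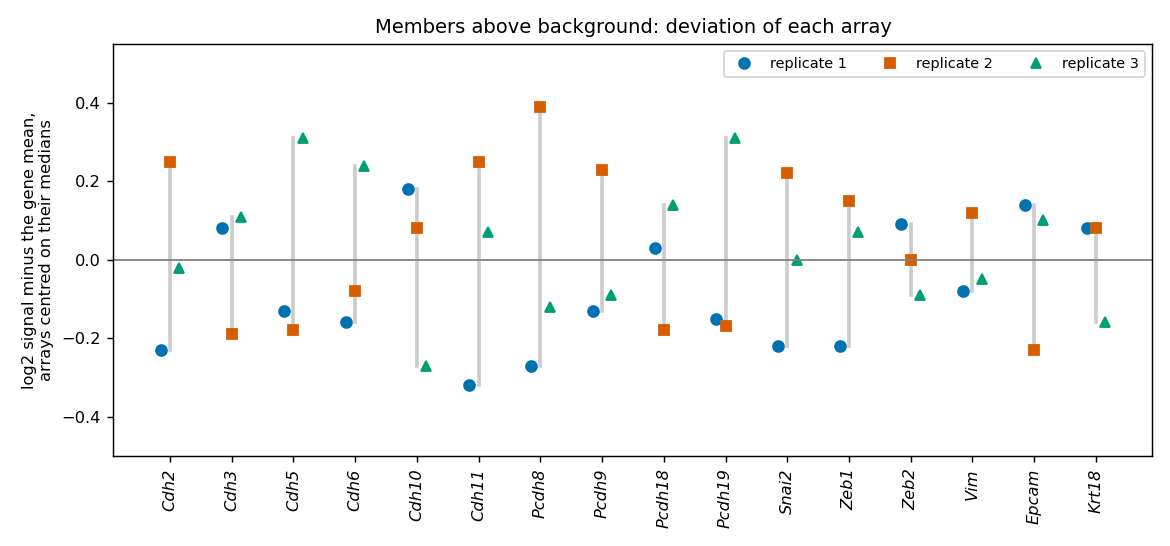
Log2 signal of the 16 genes above background on each array, minus the gene's mean, after each array was centred on its median. Points are the arrays and grey bars span their range. Cdh2, Cdh11, Pcdh8, Snai2 and Zeb1 are lowest on replicate 1 and highest on replicate 2, and Epcam and Cdh3 are lowest on replicate 2.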

How the data were processed

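Per the labels' protocols, RNA from each of 3 pools went through 2 rounds of amplification and carried biotin on a 1-colour array. The authors deposited linear intensity values. The submitters' processing notes name GCOS, with version, signal algorithm and scaling target not given in the sources used here. Trimmed of the top and bottom 2% of probe sets, the mean was 1500.01 on each array, so the deposited intensity values had been scaled. No value was 0, so log2 needed no pseudocount.

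Control probe sets (64) and those with several symbols (932) or none (9160) were left out. Entrez IDs of 34741 probe sets matched a RefSeq table, and no symbol changed. The tests used limma 3.58.1 (lmFit with an intercept, eBayes, prior df 3.69) in R 4.3.3 and were checked on simulated data. The simulation drew independent noise for each gene around a fixed level, so it did not cover scatter of the background levels between arrays. No label ties a pool to its own litters. The p-values therefore reflect the scatter among these 3 samples alone, possibly technical, and include the scatter of the background levels. The number of arrays limits the precision. The genes and lists were chosen with earlier results of these data known. Named are all genes of the set, and from each other list, in its order, 3 genes that passed and 2 that failed. Outside this rule, Fat1, Fat4 and the remaining cap mesenchyme markers above background were added after their values were seen. Of the spread over arrays, the 5 detected genes with the largest SD were to be named. Levels of different genes were not ranked, since probe sets differ in affinity. Old names of 5 listed genes had no value of their own. The 12 alternatives are another percentile or kind of background gene, a common level, quantile normalization, filters on dim or cross-matching probe sets, the mean over probe sets, a call on every array and leaving out each array.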

Additional observations from a re-analysis of the deposited data

How the results depend on the processing

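Over 12 alternatives, the number of the 38 genes above background ran from 14 to 18, against 16, and was 16 without replicate 1, 2 or 3. Probe sets above background numbered 27 to 35 of 84 and genes of the related lists 33 to 47 of 87, against 32 and 42. Of 449 values of single genes under an alternative, 442 kept their side of the threshold, 2 lost the call, 3 gained it and 2 lay below the level after being above it. The calls that changed were those of Cdh3, Cdh5, Cdh10, Cdh13 and Cdh15. Cdh5 (-0.04) and Cdh10 (-0.32) lay below the level with the mean over probe sets, as did Grhl2 (-2.35), Klf5 (-0.02), Acta2 (-0.33), Nes (-0.80), Eya1 (-0.29), Calb1 (-1.44), Tfcp2l1 (-2.60) and Erbb3 (-0.75), where dim probe sets enter the mean. Tfcp2l1 lay at -0.15 with a level from tissue-restricted genes. Without probe sets able to match several genes, Acta2 lay at -1.89 and Dbh at 0, and the brightest probe set of both is of that kind. Cdh15 passed at the 90th percentile (0.55, adjusted p = 0.032) and when a call meant lying above the level on every array. With a level from tissue-restricted genes, Clstn3 (0.14), Grhl2 (0.01), Elf3 (0.15), Dll1 (0.09), Kdr (0.15) and Erbb3 (0.49) also lost the call. No paired analysis was possible because the samples form 1 group. The 5 genes whose call moved lay between 0.14 and 1.69 log2 units from the level.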
